A study of Homo sapiens with 6 samples.

Results

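The nuclear genes of the respiratory chain were followed in MDA-MB-453 breast cancer cells with and without knockdown of the small RNA tRF-1-Ser. Members were taken by symbol: genes of the count table named NDUFA, NDUFB, NDUFC, NDUFS or NDUFV with a number, UQCR, SDHA to SDHD, or ATP5. Symbols from COX4 to COX8 were taken where only the letters A to C or digits follow. This leaves out COX4I1 and COX4I2, which are given with the partners. The symbols matched 99 of the 36517 genes, 19 of these were pseudogenes and were removed, and 80 members remained. By the protein that each encodes, or by symbol alone for ATP5S and ATP5SL, 36 belonged to complex I, 4 to complex II, 9 to complex III, 13 to complex IV and 18 to complex V. NDUFA4, whose protein sits in complex IV despite its symbol, was counted there. Among the 80 were 4 genes that encode no subunit of their own: ATP5S and ATP5SL, whose proteins are not structural subunits of the ATP synthase, and UQCRHL and ATP5L2, which are copies of other members.

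Messenger RNA was sequenced from 6 libraries at day 3. The control group (replicates 1 to 3) carried a negative-control lentiviral hairpin, and the shtRF group (replicates 1 to 3) carried a lentiviral hairpin against tRF-1-Ser, a fragment cut from the tail of a serine tRNA precursor. Both groups were the same cell line, MDA-MB-453, kept in serum-containing medium, so the comparison rests on 1 line and 1 hairpin, and the hairpin's target is too short to be seen in mRNA libraries. The study calls its replicates biological but does not say whether they were separate transductions, so p-values here measure the spread between these libraries only. Libraries held between 63541413 and 78917459 counts, a ratio of 1.24. All 10 luminal and apocrine breast epithelial markers examined were present, between 4.06 and 454 RPKM (counts per kilobase of exonic length, relative to each library total). Of 5 markers of other cells, PTPRC, PECAM1, PDGFRB and COL1A2 lay at or under 0.0149 RPKM, while COL1A1 averaged 2.71 RPKM. The summed level of these 5 was 3.08 to 3.70 RPKM in control and 2.05 to 2.19 RPKM in shtRF libraries, and its part in the results was not tested.

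The respiratory chain is the set of protein complexes in the inner mitochondrial membrane that passes electrons from NADH and succinate to oxygen. Complexes I, III and IV pump protons as electrons pass, complex II feeds in electrons from succinate without pumping, and complex V, the ATP synthase, lets the protons back and makes ATP. Mitochondrial DNA encodes a few core subunits of complexes I, III, IV and V, whereas the nucleus encodes the rest and the whole of complex II, so those 4 complexes are assembled from products of both genomes.

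Knockdown was accompanied by small changes in both directions rather than by a shift of the whole set. Levels are given as CPM (counts per 1000000 counts of the library, with TMM factors), and a member was called at an adjusted p under 0.05 in edgeR's quasi-likelihood test, with Benjamini-Hochberg adjustment over all 19628 genes tested. Of the 80 members, 76 had enough counts to be tested. The test called 13 members higher in shtRF, or 17.1% of those tested, against 20.6% of all tested genes. It called 15 members lower, or 19.7%, against 18.9% of all tested genes. Without the 4 genes that encode no subunit of their own, 13 of 73 were higher and 13 lower, or 17.8% each. In either direction 36.8% of the members were called, against 39.5% of all tested genes, so the share of called members lay near the background. These are bulk libraries, in which a change in every cell and a change in some of the cells cannot be told apart.

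Fold changes were small. The fitted log2 fold changes ran from -0.51 (UQCRFS1) to 0.51 (NDUFA3), and none of the 76 was called with more than a 2-fold change by edgeR, DESeq2 or limma, against 5.77% of all tested genes. COX6B2, one of the 4 members with too few counts for this test, is described with complex IV. At an unadjusted p under 0.05, 17 members were higher and 19 lower. The median log2 fold change of the 76 tested members was -0.05, with 29 values above 0 and 47 below, and that of all tested genes was 0.00. In 31 members, or 40.8%, the 3 shtRF libraries did not overlap the 3 control libraries, 15 of them higher and 16 lower, against 48.7% of all tested genes. The members were well covered, with a median of 29.1 CPM against 7.57 CPM over all tested genes, and their median standard error was 0.0712 on the log2 scale against 0.106.

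The balance between rises and falls depended on the scaling, the test and the libraries used. Rises made up 46.4% of the calls on members, but 25.9% (7 higher and 20 lower) with upper quartile scaling, 25.0% (5 and 15) with limma-trend on log2(RPKM + 1) and 29.2% (7 and 17) without control replicate 1; without shtRF replicate 2 there were 8 higher and 13 lower. Over all tested genes the share of rises among the calls was 52.2%, and it was 45.7% with upper quartile scaling, 43.3% with limma-trend on log2(RPKM + 1) and 51.5% without control replicate 1. Of the 28 calls, 11 were kept under every alternative that tested the gene (16 for NDUFA1 and NDUFS1, 17 for the others). Among these were NDUFA1, NDUFA3 and COX7C, which were higher, and NDUFA10, NDUFS1, SDHB, UQCRC2, UQCRFS1, ATP5A1 and ATP5G2, which were lower. None of the 28 changed direction under any of these alternatives.

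**Figure D1:**
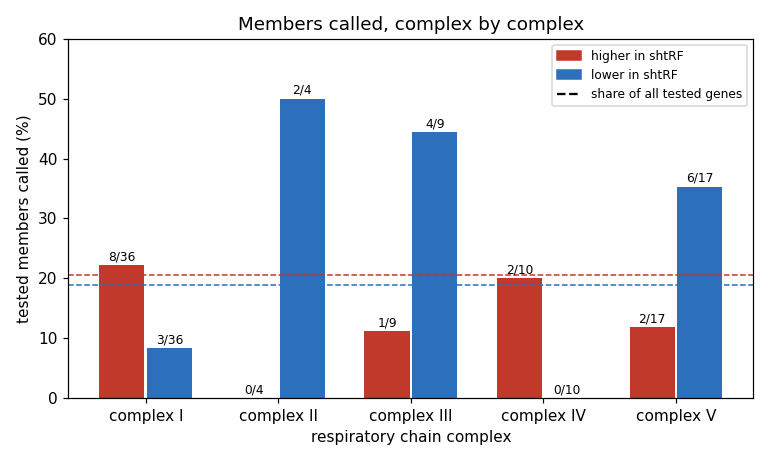
Share of tested members called higher (red) or lower (blue) in shtRF, in percent on the vertical axis, for each complex on the horizontal axis, with the number called over the number tested above each bar. Dashed lines mark the share of all 19628 tested genes called in the same direction, 20.6% (red) and 18.9% (blue): the bars for lower members stand above their line in complexes II, III and V and under it in complexes I and IV.

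The balance of calls was counted complex by complex, and differences between complexes were not tested. Complex I had 8 members higher and 3 lower of 36, complex IV 2 higher and 0 lower of 10 tested, complex II 0 higher and 2 lower of 4, complex III 1 higher and 4 lower of 9 (3 lower of 8 without the copy UQCRHL), and complex V 2 higher and 6 lower of 17 tested. Median log2 fold changes were -0.03 in complex I, -0.17 in complex II, -0.11 in complex III, -0.04 in complex IV and -0.15 in complex V. Summed over all 80 members, the level was 5369 ± 145 CPM (SD, n = 3) in control and 5568 ± 141 CPM (SD, n = 3) in shtRF libraries. In complex IV the sum went from 959 ± 79.6 to 1121 ± 31.3 CPM, a ratio of 1.17, and its most abundant member COX6C alone went from 504 ± 64.5 to 622 ± 30.2 CPM (SD, n = 3). In complexes I, II, III and V the ratio of the sums was 1.04, 0.983, 1.002 and 0.965.

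**Figure D2:**
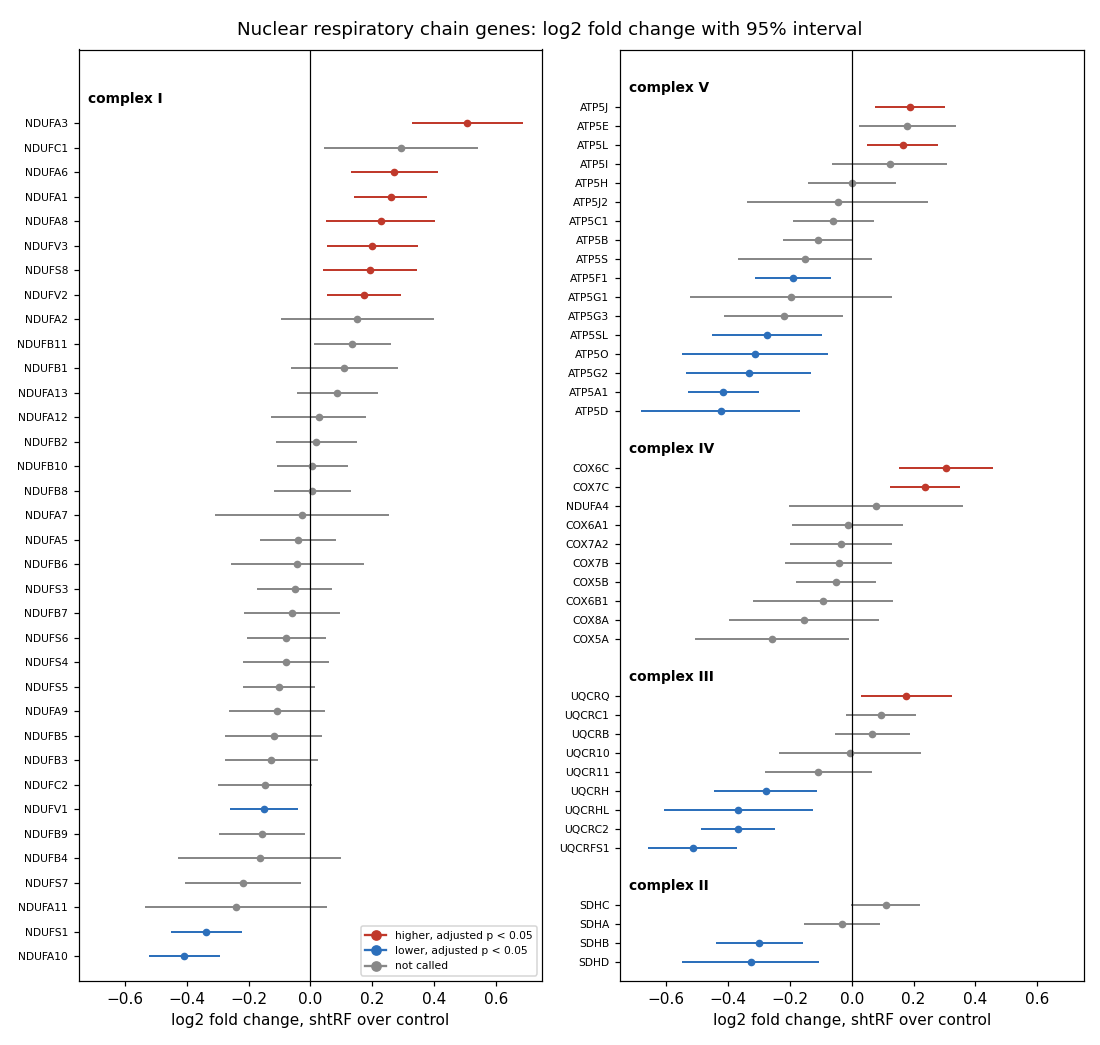
Fitted log2 fold change (shtRF over control) of 75 tested members with its 95% interval (line) on the horizontal axis, grouped by complex and ordered by value. Red marks members called higher, blue members called lower and grey members not called; all points lie between -0.51 and 0.51.

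Promoter motifs were searched as a feature that the symbols did not use. Nuclear respiratory genes are known targets of NRF1, of the ETS factor GABP, of YY1 and of the oestrogen-related receptors (ERR). RefSeq promoter windows (GRCh38.p14, 250 bases before to 50 bases after the start) were found for 63 of the 80 members, and 4 motifs of 7 letters were searched on both strands: GCATGCG (NRF1), CCGGAAG (ETS), ATGGCGG (YY1) and AAGGTCA (ERR). No motif contains another, but GCATGCG and its reverse complement overlap in all but their outer letters, and each promoter was counted once. The NRF1 motif was found in 22.2% of the members with a window and in 4.74% of all 27305 genes with a window. These 27305 include genes not among the 19628 tested, and the shares were not compared with those of the tested genes alone. The ETS motif was found in 30.2% against 12.2%, the YY1 motif in 33.3% against 6.66% and the ERR motif in 15.9% against 4.80%. Any of the 4 was found in 38 members, or 60.3%, against 24.4% of all genes: 9 of the 11 members called higher, 6 of the 13 called lower and 23 of the 37 not called. Single motifs differed in this split. Among the 11 called higher and the 13 called lower, NRF1 was found in 3 and 3, ETS in 4 and 5, YY1 in 5 and 3 and ERR in 1 and 3. Whether motifs go with the direction of a call was not tested. A match describes these letters and is not a binding site. Other forms of the sites were not searched, so a promoter without a match may still hold one.

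The windows of 5 members, chosen after their values were seen, show this range, from all 4 motifs to no exact match. Each runs 5′ to 3′ from 250 bases before the start to 25 bases after it, in lower case with the motifs in capitals, on GRCh38.p14: UQCRFS1 at chr19:29213127-29213401 on the minus strand and NDUFA3 at chr19:54102605-54102879 on the plus strand, the largest fall and the largest rise among tested members, with no motif; SDHB at chr1:17054008-17054282 on the minus strand, with the ERR motif starting 224, the NRF1 motif 200 and the ETS motif 128 bases before the start and the YY1 motif 14 bases into the transcript; NDUFS1 at chr2:206159420-206159694 on the minus strand (the first of its 2 windows), with the ETS and YY1 motifs on the reverse strand; and NDUFA6 at chr22:42090748-42091022 on the minus strand, with the NRF1 motif 166 bases before the start.
UQCRFS1: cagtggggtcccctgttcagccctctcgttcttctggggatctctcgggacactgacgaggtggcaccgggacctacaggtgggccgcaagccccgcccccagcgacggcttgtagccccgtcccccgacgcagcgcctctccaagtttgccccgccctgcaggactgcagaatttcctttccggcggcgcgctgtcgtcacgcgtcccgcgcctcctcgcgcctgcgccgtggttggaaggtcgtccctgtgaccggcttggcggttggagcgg
NDUFA3: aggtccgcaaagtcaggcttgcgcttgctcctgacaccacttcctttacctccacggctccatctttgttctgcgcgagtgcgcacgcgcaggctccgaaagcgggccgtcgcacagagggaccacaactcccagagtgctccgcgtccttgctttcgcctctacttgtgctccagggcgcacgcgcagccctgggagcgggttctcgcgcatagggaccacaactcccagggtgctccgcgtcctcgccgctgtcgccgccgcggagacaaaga
SDHB: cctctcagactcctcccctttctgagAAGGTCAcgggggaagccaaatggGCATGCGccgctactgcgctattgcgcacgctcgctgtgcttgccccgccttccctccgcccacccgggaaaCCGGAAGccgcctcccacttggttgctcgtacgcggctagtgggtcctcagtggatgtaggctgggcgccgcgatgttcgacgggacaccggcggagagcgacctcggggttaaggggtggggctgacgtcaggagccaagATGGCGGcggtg
NDUFS1: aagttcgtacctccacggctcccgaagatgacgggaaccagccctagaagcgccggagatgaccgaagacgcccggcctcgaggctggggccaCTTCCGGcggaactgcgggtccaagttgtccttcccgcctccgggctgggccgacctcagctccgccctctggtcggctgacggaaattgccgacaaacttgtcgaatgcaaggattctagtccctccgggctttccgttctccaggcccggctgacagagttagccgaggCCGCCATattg
NDUFA6: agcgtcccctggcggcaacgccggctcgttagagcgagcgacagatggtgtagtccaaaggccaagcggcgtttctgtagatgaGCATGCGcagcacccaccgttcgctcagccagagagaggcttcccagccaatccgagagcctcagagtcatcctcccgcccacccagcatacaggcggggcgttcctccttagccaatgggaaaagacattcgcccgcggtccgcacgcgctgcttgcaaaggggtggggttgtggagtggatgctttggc

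Complex I, NADH dehydrogenase, had 8 members higher and 3 lower of 36, and the changed members included subunits on the path that electrons take. NDUFS1, the largest iron-sulphur subunit of the peripheral arm, fell 1.26-fold. NDUFA3 rose 1.42-fold and NDUFA10 fell 1.33-fold, and these are supernumerary subunits, which surround the catalytic core.

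NDUFS1 (chr2:206114817-206159603), which passes electrons inward through its iron-sulphur clusters, stood at 134, 142 and 139 CPM in control and at 107, 116 and 106 CPM in shtRF libraries. All 3 shtRF libraries lay under the lowest control library. It fell by 0.34 on the log2 scale (SE 0.0540), with an adjusted p of 3.14e-05 in edgeR's quasi-likelihood test with Benjamini-Hochberg adjustment, the test behind every adjusted p credited to edgeR here. An antisense gene, AC007383.4, covers 11.7% of its exonic sequence and was not called (log2 fold change 0.02).

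NDUFV1, which carries the flavin that accepts electrons from NADH, was lower by a small margin, at 103, 101 and 101 CPM in control and 89.2, 91.4 and 94.8 CPM in shtRF libraries. The libraries separated by group, yet by only -0.15 on the log2 scale (SE 0.0515, edgeR adjusted p = 0.0248). Without control replicate 1, shtRF replicate 1 or shtRF replicate 2 the call was lost, with adjusted p = 0.0602, 0.0691 and 0.0820.

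Further core subunits were called higher or were not called. NDUFV2, the iron-sulphur subunit beside the NADH site, was called higher with a log2 fold change of 0.17, and NDUFS8, an iron-sulphur subunit of the peripheral arm, with 0.19. Their calls were kept in 11 of 16 and 8 of 17 alternatives, and NDUFV2 shares 28.4% of its exonic sequence with RP11-21J18.1 on the same strand, which was also called higher (log2 fold change 0.16). NDUFS3 and NDUFS7, which completes the chain of clusters before quinone, were not called, with log2 fold changes of -0.05 and -0.22.

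NDUFA3 (chr19:54102728-54109257) had the largest rise of the 76 members. It stood at 9.48, 9.33 and 8.67 CPM in control and at 12.6, 13.6 and 12.8 CPM in shtRF libraries. The gap between the groups was wide relative to their spread, and the rise was 0.51 on the log2 scale (SE 0.0850, edgeR adjusted p = 5.15e-05). TFPT on the opposite strand covers 6.34% of its exonic sequence and rose by 0.64 on the log2 scale, and the part of these shared bases in the rise was not tested.

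NDUFA6 (chr22:42085525-42090955), the member with the highest level per length, stood at 375, 365 and 424 CPM in control and at 423, 504 and 477 CPM in shtRF libraries. The highest control library and the lowest shtRF library nearly coincided, so the groups overlapped by a narrow margin. It rose by 0.27 on the log2 scale (SE 0.0665, edgeR adjusted p = 0.00235), and with limma-trend on log2(RPKM + 1) the adjusted p was 0.0531.

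NDUFA10 (chr2:239892450-240025402) had the largest fall in complex I. It stood at 66.3, 66.2 and 63.8 CPM in control and at 49.9, 48.4 and 49.4 CPM in shtRF libraries. The replicates within each group were close, and the groups stood apart by -0.41 on the log2 scale (SE 0.0534, edgeR adjusted p = 2.2e-06).

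The remaining called supernumerary subunits were all higher, and are named here after their values were seen. NDUFA1, NDUFA8 and NDUFV3 had log2 fold changes of 0.26, 0.23 and 0.20. NDUFA1 shares 44.5% of its exonic sequence with RNF113A on the opposite strand, which was also called higher (log2 fold change 0.22), so the reads of the pair cannot be told apart if strand was not used in counting. NDUFA8 and NDUFV3 kept their calls in 9 and 11 of 17 alternatives.

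The NDUFB genes, whose 11 products belong to the membrane arm, held no call, against 30.6% of complex I members and 39.5% of all tested genes. edgeR's test called 0 of the 11 in either direction, with 1 higher (NDUFB11) and 1 lower (NDUFB9) at an unadjusted p under 0.05, DESeq2 also called 0 and limma-trend on log2(RPKM + 1) called 2 lower. Their log2 fold changes ran from -0.16 to 0.14 with a median of -0.04, and the 95% intervals of the 11 together spanned -0.43 to 0.28. In 5 of the 11, at least 10% of the exonic sequence is shared with another gene, up to 48.5% in NDUFB8. BRAF, the partner of NDUFB2, and MTSS1, that of NDUFB9, were called lower (log2 fold changes -0.27 and -0.75). The partners of NDUFB3, NDUFB8 and NDUFB11 were not called, and the part of shared reads was not tested. NDUFC1 and NDUFC2 were not called either, at log2 fold changes of 0.29 and -0.15. Over all 23 supernumerary subunits of complex I that were not called, the values ran from -0.24 (NDUFA11) to 0.29 (NDUFC1).

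Calls in complex I were sensitive to single libraries. Without control replicate 1 the members called higher fell from 8 to 4 and without shtRF replicate 3 to 5, while without control replicate 3 those called lower rose from 3 to 5.

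Complex II, succinate dehydrogenase, which also runs a step of the citric acid cycle, had 2 of its 4 subunits lower and the other two not called. The subunits that fell were SDHB, the iron-sulphur subunit that relays electrons, and SDHD, a membrane anchor. edgeR's test called 0 subunits higher, with 1 (SDHC) at an unadjusted p under 0.05 and 0 by DESeq2 and limma-trend on log2(RPKM + 1).

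SDHB (chr1:17018722-17054170) stood at 25.2, 26.4 and 26.6 CPM in control and at 20.8, 22.1 and 20.6 CPM in shtRF libraries. No shtRF library reached the lowest control library, and the fall was 1.23-fold (-0.30 on the log2 scale, SE 0.0662, edgeR adjusted p = 0.000954). Its promoter window is the one above with all 4 motifs.

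SDHD (chr11:112086773-112120013) stood at 7.75, 8.83 and 10.1 CPM in control and at 6.72, 7.28 and 7.31 CPM in shtRF libraries. There was no overlap, but the lowest control library came close to the highest shtRF library. SDHD fell by 0.33 on the log2 scale (SE 0.105, edgeR adjusted p = 0.0168). Without control replicate 3 the adjusted p was 0.113 and without shtRF replicate 1 it was 0.0657, which leaves 1 subunit of the complex called. It shares 13.8% of its exonic sequence with AP002884.2, which was not called (log2 fold change -0.20).

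SDHA (chr5:218241-256700), the flavoprotein that oxidises succinate, stood at 207, 211 and 199.6 CPM in control and at 185, 206 and 212 CPM in shtRF libraries. The groups overlapped, with a log2 fold change of -0.03 and a 95% interval of -0.15 to 0.09. Its pseudogenes SDHAP1, SDHAP2 and SDHAP3 held 39.8% of the counts of SDHA and pseudogenes together, by far the largest such share among members. SDHAP1 and SDHAP2 were called lower, at log2 fold changes of -0.18 and -0.37. With their counts added to SDHA the log2 fold change was -0.12 (edgeR adjusted p = 0.0961), so the level of SDHA itself is uncertain where reads were divided among near-identical copies.

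SDHC (chr1:161314257-161375340), the other membrane anchor, stood at 76.7, 73.0 and 74.5 CPM in control and at 78.9, 81.5 and 81.3 CPM in shtRF libraries. All shtRF libraries were above all control libraries, although the difference of 0.11 on the log2 scale was not called (SE 0.0519, edgeR adjusted p = 0.103).

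**Figure D3:**
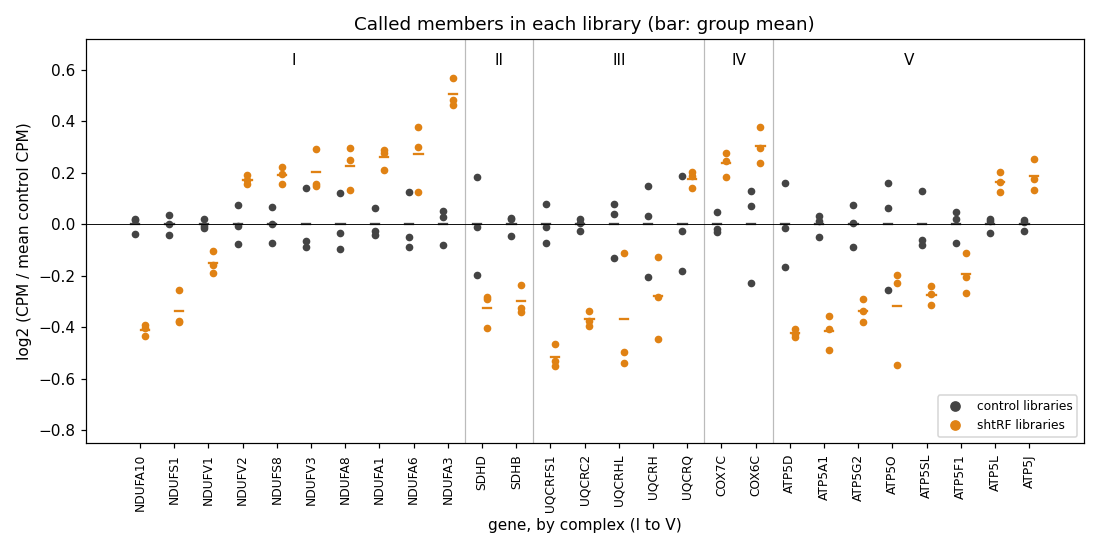
Level of called members in each library, as log2 of its CPM over the mean control CPM (vertical axis), for 27 members in order of complex (horizontal axis). Grey points are control and orange points shtRF libraries, and short bars are group means; the groups stand apart in NDUFA10, NDUFA3, UQCRFS1 and ATP5A1 and touch or overlap in NDUFA6, UQCRH, UQCRHL, UQCRQ and ATP5O.

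Complex III, the cytochrome bc1 complex, had 4 members lower and 1 higher of 9. UQCRFS1, the Rieske iron-sulphur protein that takes electrons from quinol, fell 1.43-fold, the largest fall of the 76 members. UQCRC2, a core protein, fell 1.29-fold, while its partner UQCRC1 was not called. UQCRH, the hinge protein, and its intronless copy UQCRHL were both lower.

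UQCRFS1 (chr19:29205321-29213541) stood at 27.7, 26.5 and 29.4 CPM in control and at 20.2, 19.3 and 19.0 CPM in shtRF libraries. The lowest control library was well above the highest shtRF library, and the difference was -0.51 on the log2 scale (SE 0.0679, edgeR adjusted p = 2.49e-06). Over the 17 alternatives the value lay between -0.56 and -0.47.

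UQCRC2 (chr16:21952660-21983660) stood at 43.9, 45.4 and 44.8 CPM in control and at 35.4, 34.5 and 33.98 CPM in shtRF libraries. The replicates were tight and the groups separate, and UQCRC2 fell by 0.37 on the log2 scale (SE 0.0560, edgeR adjusted p = 1.51e-05). UQCRC1, the other core protein, had a log2 fold change of 0.09 with a 95% interval of -0.02 to 0.21.

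UQCRHL (chr1:15807169-15809348) stood at 8.85, 7.86 and 9.09 CPM in control and at 7.97, 5.93 and 6.10 CPM in shtRF libraries. The groups overlapped, since shtRF replicate 1 lay above control replicate 2. UQCRHL fell by 0.37 on the log2 scale (SE 0.115, edgeR adjusted p = 0.0139), and without shtRF replicate 2 or 3 the adjusted p was 0.0924 and 0.0821. The call of UQCRHL was also lost with limma-trend on log2(RPKM + 1). UQCRH was lower at a log2 fold change of -0.28, a call lost without shtRF replicate 2 and with limma-trend on log2(RPKM + 1) and log2(RPKM + 0.1). Because the copies are near-identical, reads of UQCRH could have been counted as UQCRHL and their values are not independent.

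UQCRQ (chr5:132866560-132868031), a small subunit, stood at 87.1, 78.2 and 101 CPM in control and at 102, 97.8 and 101 CPM in shtRF libraries. The groups overlapped, with the spread of the control libraries as wide as the difference. The rise of 0.18 on the log2 scale had an adjusted p of 0.0467 in edgeR's test, and the call was kept in 4 of 16 alternatives, with an adjusted p of 0.361 without control replicate 2. It was also lost without control replicate 1 and without any one of the shtRF libraries, and it shares 20.8% of its exonic sequence with GDF9 on the opposite strand, which was called higher (log2 fold change 0.19).

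Without shtRF replicate 2 only 2 members of complex III were called, both lower, and without shtRF replicate 3 it was 3. UQCRB, UQCR10 and UQCR11, the remaining small subunits, were not called, at log2 fold changes of 0.07, -0.01 and -0.11.

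Complex IV, cytochrome c oxidase, had its most abundant members higher. COX6C rose 1.24-fold and COX7C 1.18-fold, and these small subunits wrap the catalytic core that mitochondrial DNA encodes. The other 8 tested members were not called. edgeR's test called 0 lower, with 1 (COX5A) at an unadjusted p under 0.05, and DESeq2 and limma-trend on log2(RPKM + 1) also called 0 lower.

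COX6C (chr8:99873200-99894062) stood at 529, 430.5 and 552 CPM in control and at 594, 619 and 654 CPM in shtRF libraries. All shtRF libraries were above all control libraries, with control replicate 2 the lowest by a wide margin. COX6C rose by 0.30 on the log2 scale (SE 0.0717, edgeR adjusted p = 0.00167), and with limma-trend on log2(RPKM + 1) the adjusted p was 0.0623.

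COX7C (chr5:86617904-86620962) stood at 277, 279 and 292 CPM in control and at 321, 343 and 336 CPM in shtRF libraries. Here too every shtRF library was the higher, by 0.24 on the log2 scale (SE 0.0526, edgeR adjusted p = 0.000973). COX5A, a subunit in the matrix-facing part, was not called at a log2 fold change of -0.26 (edgeR adjusted p = 0.0920), and its lowest library was shtRF replicate 3 at 5.11 CPM against 7.67 to 8.01 CPM in control. COX5B and NDUFA4 were not called, at log2 fold changes of -0.05 and 0.08.

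In the COX6B, COX7A and COX8 families, the isoform used by most tissues was the one expressed. Among the members COX6A1 and COX7B had no other isoform, so none was compared in those families. COX6A1 averaged 23.2 and 23.0 CPM in control and shtRF libraries, COX6B1 8.02 and 7.52 CPM, COX7A2 30.1 and 29.4 CPM, COX7B 17.4 and 16.9 CPM and COX8A 7.28 and 6.54 CPM. The groups overlapped in all 5, and their log2 fold changes were -0.01, -0.09, -0.03, -0.04 and -0.15, with 95% intervals that together spanned -0.39 to 0.16. COX8A shares 34.5% of its exonic sequence with AP000721.4 on the same strand, which was called higher (log2 fold change 0.32). The part of these shared bases in the value of COX8A was not tested.

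The tissue isoforms had counts near 0 and were not tested. COX7A1, the heart and muscle isoform, averaged 0.0586 CPM in control and 0.0889 CPM in shtRF libraries, and COX8C, a testis isoform, reached no more than 0.0285 CPM. COX6B2, the testis isoform of COX6B, had 8, 12 and 12 counts in control and 0, 0 and 2 counts in shtRF libraries. These groups did not overlap, and scaled to depth the summed counts of 32 and 2 gave a control level 14.6 times that of shtRF, with an exact 95% interval of 3.72 to 126 that covers counting error only. The interval is too narrow where both reads of a pair were counted, and COX6B2 shares 30.9% of its exonic sequence with another gene. Without the filter on low counts COX6B2 passed edgeR's test (adjusted p = 0.0173), as it did without control replicate 1 or without any one of the shtRF libraries.

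Complex V, the ATP synthase, had 6 members lower and 2 higher of 17 tested. The falls reached the F1 head, the rotor and the stalk: ATP5A1, the alpha subunit of the head, fell 1.33-fold, ATP5D, the delta subunit of the central stalk, 1.34-fold, and ATP5G2, which encodes the c subunit of the membrane rotor, 1.26-fold. ATP5J and ATP5L, a peripheral stalk subunit and a small membrane subunit, rose 1.14-fold and 1.12-fold. Without ATP5S, ATP5SL and ATP5L2, 5 of the 15 subunits were lower and 2 higher.

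ATP5A1 (chr18:46080248-46104334, now ATP5F1A) stood at 147, 156 and 153 CPM in control and at 108, 115 and 119 CPM in shtRF libraries. All shtRF libraries were below all control libraries, at a difference of -0.42 on the log2 scale (SE 0.0539, edgeR adjusted p = 1.98e-06). ATP5B, the catalytic beta subunit that pairs with it in the head, had a log2 fold change of -0.11 with a 95% interval of -0.22 to 0.00 and was not called, although its groups did not overlap.

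ATP5D (chr19:1241746-1244826, now ATP5F1D) stood at 4.84, 5.39 and 6.08 CPM in control and at 4.01, 4.11 and 4.05 CPM in shtRF libraries. The shtRF libraries lay close together and below every control library. ATP5D fell by 0.42 on the log2 scale (SE 0.122, edgeR adjusted p = 0.00822), and without control replicate 3 the adjusted p was 0.0503. ATP5E, the epsilon subunit of the same stalk, had a log2 fold change of 0.18 (edgeR adjusted p = 0.0557), and ATP5C1, the gamma subunit, one of -0.06.

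Subunit c is encoded by 3 genes whose mature products are the same protein. ATP5G2 (chr12:53632726-53677408, now ATP5MC2) stood at 9.13, 8.69 and 8.15 CPM in control and at 6.66, 7.08 and 6.85 CPM in shtRF libraries. Its groups were separate, and it fell by 0.33 on the log2 scale (SE 0.0961, edgeR adjusted p = 0.00815).

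ATP5G3 stood at 15.3 to 16.9 CPM in control and at 12.2 to 16.002 CPM in shtRF libraries, and the groups overlapped. Its difference of -0.22 on the log2 scale was not called (SE 0.0907, edgeR adjusted p = 0.0592). ATP5G1 averaged 3.05 ± 0.528 and 2.67 ± 0.107 CPM (SD, n = 3), with a log2 fold change of -0.20 and a 95% interval of -0.52 to 0.13. All 3 genes thus had values below 0, of which 1 was called, and 8.12% of the counts of ATP5G1 and its pseudogenes together fell on the pseudogenes.

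In the peripheral stalk, which holds the head still against the rotor, members moved both ways. ATP5J (chr21:25716503-25735673) stood at 103, 106 and 107 CPM in control and at 115, 126 and 119 CPM in shtRF libraries. The libraries of the groups were separate, with a rise of 0.19 on the log2 scale (SE 0.0527, edgeR adjusted p = 0.00635), and the adjusted p was 0.0504 without shtRF replicate 2. ATP5J lies head to head with GABPA, and shares 23.1% of its exonic sequence with that gene.

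ATP5F1 and ATP5O, the b subunit and the oligomycin sensitivity-conferring protein of the same stalk, were lower at log2 fold changes of -0.19 and -0.31, and are named after their values were seen. ATP5F1 lost its call without shtRF replicate 3 (adjusted p = 0.0892, edgeR). ATP5O lost its call without control replicate 1 or 2 or shtRF replicate 3, and with limma-trend on log2(RPKM + 1) and log2(RPKM + 0.1). ATP5F1 and ATP5O share 10.3% and 25.4% of their exonic sequence with WDR77 and AP000304.12, neither of which was called (log2 fold changes 0.19 and -0.23). ATP5H (chr17:75038863-75046985), the d subunit and the member of the complex with the highest level per length, stood at 354, 413 and 355 CPM in control and at 340.1, 401 and 382 CPM in shtRF libraries. The groups overlapped, and the 95% interval of its log2 fold change was -0.14 to 0.14.

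ATP5L (chr11:118401154-118431496) stood at 54.8, 56.9 and 56.5 CPM in control and at 62.9, 64.5 and 61.1 CPM in shtRF libraries. The shtRF libraries were all higher, by 0.16 on the log2 scale (SE 0.0536, edgeR adjusted p = 0.0179). Without control replicate 1, shtRF replicate 1 or shtRF replicate 2 its adjusted p was 0.0783, 0.0528 and 0.0831. The call of ATP5L was kept in 10 of 17 alternatives. It was also lost with upper quartile scaling, with no filter on low counts and with limma-trend on log2(RPKM + 1) and log2(RPKM + 0.1). The count of complex V members called higher was 1 without control replicate 1, 4 without control replicate 3, 1 without shtRF replicate 1 and 0 without shtRF replicate 2. ATP5SL, whose protein takes part in building complex I, was lower at a log2 fold change of -0.27, a call lost without control replicate 2 (adjusted p = 0.0781, edgeR). ATP5I, ATP5J2 and ATP5S were not called, at log2 fold changes of 0.12, -0.05 and -0.15.

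Levels of the members of a single complex were far from equal when compared per length of exon. Mean RPKM over the 6 libraries ran from 1.01 (NDUFA11) to 301 (NDUFA6) in complex I, from 3.19 (SDHD) to 24.3 (SDHA) in complex II, from 3.51 (UQCRHL) to 64.1 (UQCRQ) in complex III, from 1.23 (NDUFA4) to 183 (COX6C) among the tested members of complex IV and from 0.699 (ATP5S) to 116 (ATP5H) among those of complex V. The median over the tested members was 11.8 RPKM, against 2.38 RPKM over all tested genes. RPKM was computed over the summed length of all annotated exons of a gene, so genes with long or rarely used exons are placed lower. NDUFS5 was the second of complex I at 255 RPKM, and COX7C the second of complex IV at 154 RPKM.

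**Figure D4:**
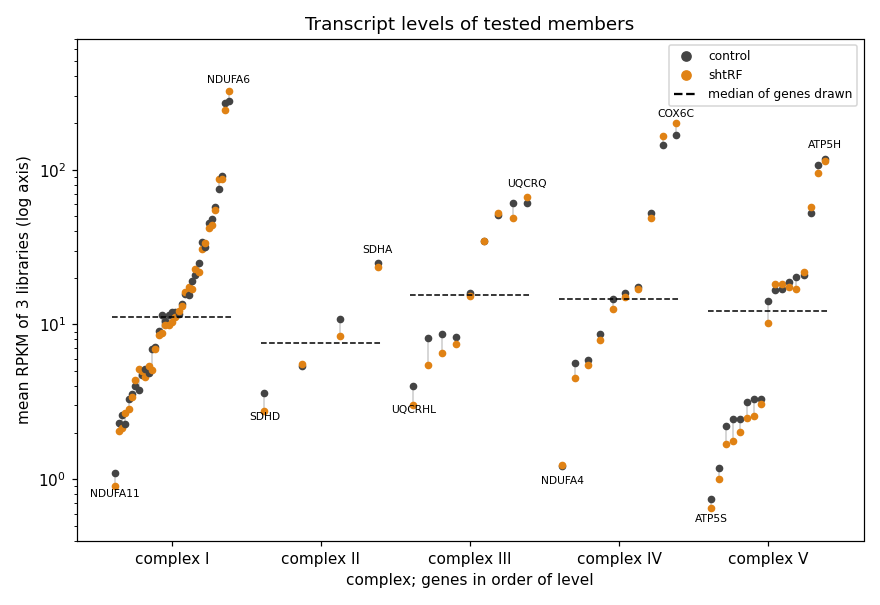
Mean RPKM (log axis) of 75 tested members in control (grey, 3 libraries) and shtRF (orange, 3 libraries), ordered by level within each complex on the horizontal axis, with the median of the members drawn for each complex as a dashed line and the lowest and highest member named. Within complex I the levels run from 1.01 to 301 RPKM, a range far wider than any difference between the groups.

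Partners of these subunits outside the symbol rule moved in both directions as well. CYCS, which encodes cytochrome c, the carrier between complexes III and IV, stood at 279.7, 309 and 311 CPM in control and at 368, 434 and 412 CPM in shtRF libraries. All shtRF libraries were above all control libraries, by 0.43 on the log2 scale (SE 0.0626, edgeR adjusted p = 8.57e-06). COX7A2L, which takes part in joining complexes III and IV into supercomplexes, stood at 20.4, 19.1 and 18.001 CPM in control and at 13.2, 12.5 and 11.4 CPM in shtRF libraries. Its groups did not overlap either, and the fall, -0.63 on the log2 scale (SE 0.0807, edgeR adjusted p = 1.71e-06), was larger than that of any of the 76 tested members. COX4I1, the main COX4 isoform, was higher (log2 fold change 0.18), CYC1, NDUFAB1 and NDUFA4L2 were not called (-0.13, -0.11 and -0.31), and COX4I2 had too few counts to be tested.

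The 13 protein-coding genes of mitochondrial DNA, whose products join the nuclear subunits, had 5 higher and 2 lower. Of all tested genes, 20.6% were called higher and 18.9% lower. Among the mitochondrial genes of complex I, MT-ND1, MT-ND2, MT-ND5 and MT-ND6 rose by log2 fold changes of 0.40, 0.21, 0.29 and 0.34. MT-CYB, the only such gene of complex III, was lower at -0.39, and in complex IV MT-CO1 was lower at -0.21 while MT-CO3 was higher at 0.25. MT-ATP8 shares 22.2% of its exonic sequence with MT-ATP6, and neither was called (log2 fold changes 0.09 and 0.13). MT-ND6 lies next to MT-ND5 on the opposite strand. The strand setting of the counting is not given, so reads of either gene could have been counted in the other, which was not tested.

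Assembly factors, which build the complexes without remaining in them, had 3 higher and 10 lower of 49 tested. Against this, 20.6% of all tested genes were called higher and 18.9% lower. The median log2 fold change of the 49 factors was -0.04. The highest values among those called were NDUFAF5 (0.35), TMEM70 (0.30), which acts in assembly of complex V, and TIMMDC1 (0.24), which acts in assembly of complex I. The lowest were SDHAF3 (-0.45), a factor of complex II, NUBPL (-0.39), which delivers iron-sulphur clusters to complex I, and COA4 (-0.34), a factor of complex IV. TIMMDC1 and TMEM70 share 29.2% and 11.5% of their exonic sequence with another gene.

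Of 16 transcriptional regulators of respiratory genes, 2 were higher and 6 lower, against 20.6% and 18.9% of all tested genes. NRF1 and GABPA, whose motifs were searched above, were not called, at log2 fold changes of -0.14 and 0.13. YY1, whose motif was also searched, was lower at -0.15 (edgeR adjusted p = 0.0414), and GABPB1, the partner of GABPA in GABP, was lower at -0.19 (edgeR adjusted p = 0.0264), with no overlap of the groups in either gene. YY1 and GABPB1 are named after their values were seen. ESRRA, an oestrogen-related receptor, stood at 26.4, 28.8 and 29.3 CPM in control and at 37.3, 32.9 and 35.6 CPM in shtRF libraries, a log2 fold change of 0.32 with no overlap of the groups. TFAM, which packages and transcribes mitochondrial DNA, was higher at 0.21. PPARGC1A, a coactivator of mitochondrial biogenesis, was lower at -0.48 from a low level, 2.62 ± 0.634 to 1.87 ± 0.0428 CPM (SD, n = 3). MYC was lower at -1.48, a larger change than that of any of the 76 tested members.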

How the data were processed

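Groups came from the sample titles. Per the labels, stranded mRNA libraries were sequenced as read pairs, and the authors deposited a table of raw counts per gene and RPKM values computed from them. The submitters' processing notes name Trimmomatic 0.36, featureCounts of Subread 1.5.1, edgeR 3.12.1 and GRCh38; the aligner and the strand setting are not given in the sources used here. For 4991 genes with deposited RPKM, 100% of values equalled count / length / library total within a tolerance of 1e-06, and RPKM of all members was recomputed so. Among counts of 1 to 4, 74.2% to 77.1% per library were even, as when both reads of a pair are counted, so intervals on low counts are too narrow.

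Counts were fitted in R 4.3.3 with edgeR 4.0.16: filterByExpr (minimum count 10), TMM, and the quasi-likelihood test (glmQLFit, glmQLFTest) of shtRF against control without other terms, with Benjamini-Hochberg adjustment over 19628 genes. Standard errors came from the F statistic, and 95% intervals from the t distribution. DESeq2 1.42.0 and limma 3.58.1 were alternatives, and the test was checked on simulated data. Replicates of a group differed by more than sampling noise (chi-square per degree of freedom 6.31 to 19.4). Exon overlap was counted on either strand.

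Members and lists were chosen with earlier results of these data known. Members named were, per complex, the 3 largest rises and 3 largest falls among those called and the highest RPKM, with the isoform families COX6A, COX6B, COX7A, COX7B, COX8 and subunit c, complex II, and members not tested; ATP5L2 and COX8C among the latter had at most 2 counts per library. Of the lists, 7 nuclear partners, 6 regulators and the 3 largest rises and falls of the assembly factors were named. A member gene that the counts include is not reported by name or value here and was left out of the plots of single genes.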

Additional observations from a re-analysis of the deposited data

How the results depend on the processing

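Under the 17 alternatives, 425 of 486 values of named members kept their direction and their side of the threshold, 33 lost the call, 7 gained it and 21 changed sign. The counts of calls that moved by more than 1.5 times were as follows, with the cause not tested. All members higher (13) became 7 with upper quartile scaling, 5 and 5 with limma-trend on log2(RPKM + 1) and log2(RPKM + 0.1), and 7 to 14 when 1 library was left out. Complex I higher (8) became 4, 3 and 3 under these settings and 4 to 7 with 1 library out. Complex I lower (3) became 6 with upper quartile scaling, 5 with at least 10 counts in every library, 5 with halved counts, 5 and 5 with limma-trend, and 2 to 5 with 1 library out. Complex II lower, and called, (2) became 1 among genes with under 10% exon overlap, where SDHD is not tested, and 1 to 2 with 1 library out. Complex III higher (1) became 0 with RLE scaling, upper quartile scaling, at least 10 counts, halved counts, under 10% exon overlap, DESeq2 and both limma-trend fits, and 0 to 1 with 1 library out. Complex III lower (4) became 2 with limma-trend on log2(RPKM + 1) and 2 to 4 with 1 library out, and its calls (5) became 2 and 3 with limma-trend and 2 to 5 with 1 library out. Complex IV higher, and called, (2) became 1 and 1 with limma-trend; complex IV lower (0) became 1 with no filter (COX6B2), 1 with the replicate block (COX5A) and 0 to 1 with 1 library out. Complex V higher (2) became 1 with upper quartile scaling, 1 with under 10% exon overlap, 1 and 1 with limma-trend and 0 to 4 with 1 library out; its calls (8) became 5 with under 10% exon overlap.

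Sign changes fell on members that were not called. The log2 fold change of ATP5H (0.0015) was -0.0018 with RLE scaling and DESeq2, -0.034 with upper quartile scaling, -0.0053 with no filter, -0.012 with at least 10 counts, -0.010 with halved counts, -0.050 and -0.051 with limma-trend and -0.048 to 0.071 with 1 library out. With 1 library out SDHA lay between -0.070 and 0.018, COX6A1 between -0.16 and 0.057, COX7A2 between -0.14 and 0.020 and COX7B between -0.10 and 0.024.

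Replicate numbers recur in both groups, but the deviations of same-numbered libraries correlated at only 0.0592, 0.0178 and 0.0174, so the numbers were not taken as pairs. With the replicate block 14 members were higher and 18 lower. Depth limits COX6B2, COX7A1, COX8C and ATP5L2.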
